A study of Homo sapiens with 12 samples.

Results

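The genes described here are 6 genes of early B cell development that act in V(D)J recombination or form the surrogate light chain: RAG1, RAG2, DNTT, VPREB1, VPREB3 and IGLL1. They were chosen by name among the 60603 genes in the deposited tables, because RAG1 was higher with wild-type BCL7A in both lines and VPREB1 in OCI-LY1, so their values against empty vector are given as a description with no test. Both lines, OCI-LY1 and VAL, come from human diffuse large B-cell lymphoma. The constructs were an empty vector, BCL7A in its wild-type form and the splice-site mutant delta27-BCL7A, and the study asks how raised BCL7A and its mutant form change the cells. Both forms were given as short and long isoforms on a vector with a green fluorescent reporter, in 3 infection cycles at a multiplicity of 2, and reporter-positive cells were sorted. All groups, empty vector included, thus carry a vector and went through the sort. Each of the 6 groups (line by construct) has 2 libraries from separate transductions. RNA was taken at day 10 in OCI-LY1 and at day 17 in VAL, so line and day cannot be told apart.

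RAG1 and RAG2 encode the recombinase that cuts DNA at recombination signals to join antibody and T cell receptor gene segments. DNTT encodes terminal transferase, which adds untemplated bases at those joints. VPREB1 and IGLL1 encode the parts of the surrogate light chain, which pairs with the heavy chain in the pre-B cell receptor before a light chain is made. VPREB3 encodes a related protein that binds newly made heavy chain and is also made by germinal centre B cells. As background, these genes except VPREB3 are mostly shut off once a B cell is mature, and diffuse large B-cell lymphoma arises from mature B cells.

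Libraries held between 21839547 and 24935893 reads counted to genes, and 17057 genes passed the filter on low counts. BCL7A was 3.69-fold and 3.72-fold higher than empty vector in OCI-LY1 with the wild-type and the delta27 form, and 1.61-fold and 1.70-fold higher in VAL. The 10 pan B cell markers were all present, with group means of 7.90 CPM or more. Germinal centre markers were present in VAL, while 2 of 10 lay under 1 CPM in OCI-LY1, LMO2 and SERPINA9. The 10 myeloid markers summed to at most 3.22 CPM per library and the 10 progenitor and erythroid markers to at most 1.21 CPM. The plasma cell markers summed to 821 to 1199 CPM, mostly JCHAIN and MZB1, while SDC1 and PRDM1 had group means under 1 CPM in every group. In bulk RNA, fewer cells that express a gene and less RNA per cell cannot be told apart.

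On GRCh38, RAG1 (ENSG00000166349.9) spans chromosome 11, 36510709 to 36593156, on the plus strand, and RAG2 (ENSG00000175097.7) spans 36575574 to 36598279 on the minus strand. Their exons overlap by 588 bases on opposite strands, which is 7.52% of the RAG1 and 16.79% of the RAG2 exon length. The strand setting of the counting is not given in the sources used here. Of 491 genes whose exons lie wholly under exons of the other strand, which a count that ignores strand would set aside as ambiguous, 310 had reads and 42 had 100 or more. VPREB1 (ENSG00000169575.4) lies on chromosome 22, 22244675 to 22245515, plus strand, among the variable segments of the immunoglobulin lambda locus. VPREB3 (ENSG00000128218.8) spans chromosome 22, 23752743 to 23754468, and IGLL1 (ENSG00000128322.7) 23573125 to 23580308, both on the minus strand. DNTT (ENSG00000107447.8) lies on chromosome 10, 96304396 to 96338564, plus strand.

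The sequences just upstream of VPREB1 and VPREB3 are shown because, of these related genes on 1 chromosome, VPREB1 passed the main test between wild-type and delta27-BCL7A in both lines and VPREB3 in neither. They come from RefSeq (GRCh38.p14), where all 6 genes had an entry, and stop at the annotated gene start. Motifs were searched on both strands in the 250 bases before the RefSeq start, and matches are in capitals: the octamer ATTTGCAT, the E-boxes CAGGTG and CAGCTG, and CCCNNGGG, the core of sites bound by EBF1. The VPREB1 window is chr22:22244536-22244674 on the plus strand and the VPREB3 window is chr22:23754469-23754675 on the minus strand.
VPREB1: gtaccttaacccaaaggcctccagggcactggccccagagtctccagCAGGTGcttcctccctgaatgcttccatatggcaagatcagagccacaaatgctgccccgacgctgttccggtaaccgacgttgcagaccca
VPREB3: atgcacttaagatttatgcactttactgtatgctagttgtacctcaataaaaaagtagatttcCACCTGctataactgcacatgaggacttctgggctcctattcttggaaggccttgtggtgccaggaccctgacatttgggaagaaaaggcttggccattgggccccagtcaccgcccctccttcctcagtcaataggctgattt

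Both windows hold 1 CAGGTG E-box (CACCTG on the strand shown for VPREB3), at positions -203 and -187 from the RefSeq start. A CAGGTG occurs in 17.5% of the 35116 promoters searched. Closer to the RefSeq start, VPREB1 has a CCCNNGGG match at -29 (found in 17.1% of promoters) and VPREB3 has an octamer at -47 (found in 1.63%). The annotated genes start farther upstream than RefSeq. The VPREB1 match thus lies inside the annotated gene (start 22244675), and the VPREB3 octamer runs across the annotated start (23754468). The 30 bases around each match are chr22:22244746-22244775 on the plus strand and chr22:23754454-23754483 on the minus strand.
VPREB1 CCCNNGGG match: tgctgggccagCCCTTGGGgaccccaggca
VPREB3 octamer match: tcaataggctgATTTGCATgctctgttgtg

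These matches are a description of the letters only. Of the other genes, RAG2 had no match to any of the motifs, while CAGGTG was found once each for DNTT and IGLL1. IGLL1 also had 4 CCCNNGGG matches, which overlap in 2 pairs. The RAG1 entry starts 57.7 kb upstream of the start of its coding transcript and is not shown.

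RAG1 was higher with wild-type BCL7A than with empty vector in both lines, by at least 1.47-fold. Values are in CPM, read counts scaled to library size with the trimmed mean of M values (TMM). In OCI-LY1, RAG1 measured 19.1 and 19.6 CPM with empty vector, 27.8 and 29.2 CPM with wild-type BCL7A, and 21.6 and 24.3 CPM with delta27-BCL7A. The groups did not overlap: both wild-type libraries were the highest of the line and both delta27 libraries lay between. In VAL it measured 5.46 and 5.52 CPM with empty vector, 7.95 and 10.2 CPM with wild-type, and 5.69 and 6.67 CPM with delta27-BCL7A. The order of the groups was again empty vector, delta27, wild type, with no overlap. Its percentile among the genes tested was 41.2 to 48.0 in VAL and 55.8 to 62.7 in OCI-LY1.

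Against empty vector, the fitted log2 difference of RAG1 with wild-type BCL7A was 0.56 (SE 0.09) in OCI-LY1 and 0.72 (SE 0.13) in VAL, which is 1.47-fold and 1.65-fold. With delta27-BCL7A it was 0.24 (SE 0.09) and 0.16 (SE 0.14). The wild-type and delta27 comparisons of a line share their empty vector libraries. In OCI-LY1, 3 of the 4 members that passed the filter (RAG1, RAG2, VPREB1) had both wild-type libraries above both empty vector libraries, a separation shown by 25.6% of all genes tested; in VAL it was 2 of 4 (RAG1, VPREB1), against 19% of all genes. These shares stand beside a choice made on the same contrast, and nothing is read from them.

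RAG2, the obligate partner of RAG1 in the recombinase, went with RAG1 in OCI-LY1 and not in VAL. In OCI-LY1 it measured 15.9 and 19.5 CPM with empty vector, 23.3 and 23.7 CPM with wild-type BCL7A and 19.6 and 20.6 CPM with delta27-BCL7A. The wild-type libraries were the highest, and the lower delta27 library lay just above the higher empty vector library. In VAL it measured 9.97 and 10.2 CPM, 8.73 and 8.18 CPM, and 9.38 and 10.3 CPM in the same order. Here the wild-type libraries were the lowest of the line. The log2 difference of wild-type BCL7A from empty vector was 0.41 (SE 0.09) in OCI-LY1 and -0.25 (SE 0.12) in VAL.

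The number of RAG1 reads per RAG2 read lay between 1.00 and 1.23 in all 6 OCI-LY1 libraries. In VAL it was 0.548 and 0.542 with empty vector, 0.911 and 1.25 with wild-type BCL7A, and 0.606 and 0.649 with delta27-BCL7A. In reads not corrected for length, the pair was thus near level in OCI-LY1 whatever the construct. In VAL, RAG2 had more reads in every library except 1 of the 2 wild-type libraries, and the wild-type pair differed most from each other. RAG1 has 7815 exon bases against 3502 for RAG2, so level reads do not mean level transcripts. Per kilobase of exon, RAG2 was above RAG1 in every library of both lines.

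**Figure D1:**
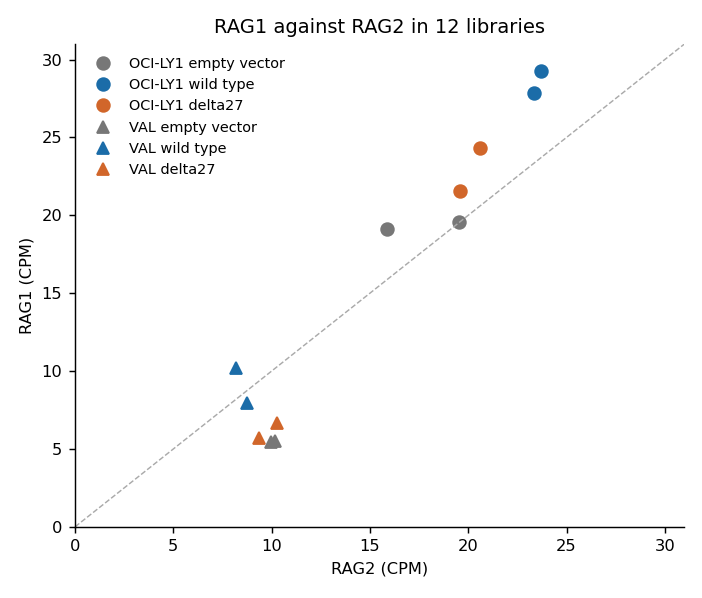
RAG1 level (y axis, CPM) against RAG2 level (x axis, CPM) in each of the 12 libraries, circles for OCI-LY1 and triangles for VAL, coloured by construct; the dashed line marks equal values. The OCI-LY1 libraries lie along or above the line, and the VAL libraries lie below it except 1 of the 2 wild-type libraries (8.18 CPM RAG2, 10.2 CPM RAG1). The line takes no account of exon length, which is greater for RAG1.

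VPREB1, the variable-region-like part of the surrogate light chain, had its largest value with wild-type BCL7A in OCI-LY1. It measured 8.13 and 9.96 CPM with empty vector, 16.4 and 17.0 CPM with wild-type BCL7A and 9.53 and 9.69 CPM with delta27-BCL7A. The wild-type libraries stood far above the other 4, whose ranges overlapped. In VAL it measured 10.3 and 10.3 CPM with empty vector, 11.2 and 11.7 CPM with wild-type and 9.09 and 8.50 CPM with delta27-BCL7A. The wild-type libraries were again the highest and the delta27 libraries the lowest, on a much narrower range. Against empty vector the log2 difference with wild-type BCL7A was 0.88 (SE 0.10), or 1.84-fold, in OCI-LY1 and 0.15 (SE 0.11) in VAL. With delta27-BCL7A it was 0.09 (SE 0.11) and -0.23 (SE 0.11); the OCI-LY1 value was -0.049 without empty vector replicate 1, 0.24 without replicate 2 and 0.34 with an offset for GC content and length.

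VPREB3 was the most abundant of the 6 genes and did not follow VPREB1. In OCI-LY1 it measured 87.6 and 79.2 CPM with empty vector, 73.2 and 78.7 CPM with wild-type BCL7A and 78.1 and 78.4 CPM with delta27-BCL7A. In VAL it measured 54.3 and 51.5 CPM, 51.7 and 48.4 CPM, and 47.4 and 46.5 CPM in the same order. The empty vector libraries held the highest value of each line, and the log2 differences from empty vector lay between -0.17 and -0.08 in the 4 comparisons (with an offset for GC content and length, the OCI-LY1 delta27 value was 0.16). Expressed per kilobase of exon, the level with empty vector in OCI-LY1 was 137 CPM per kb for VPREB3, 11.98 for VPREB1, 5.05 for RAG2 and 2.48 for RAG1. In VAL the order was the same, with 86.7, 13.7, 2.88 and 0.703 CPM per kb. The SDs over 2 libraries were at most 9.69 CPM per kb for VPREB3 and 1.71 for VPREB1, so neighbours in this order were separated by more than their spread. The RAG1 length used includes exons of non-coding transcripts.

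DNTT and IGLL1 had very few reads. DNTT gave 26 reads over the 12 libraries, with 0 to 5 in each, and IGLL1 gave 11, with 0 to 2 in each. Both failed the filter on low counts. The OCI-LY1 delta27 libraries held 0 IGLL1 reads, for which the exact 95% interval reaches up to 3.69 reads, or 0.0781 CPM, over the group. The summed DNTT count was 3, 1 and 7 in OCI-LY1 (empty vector, wild type, delta27) and 5, 7 and 3 in VAL. In OCI-LY1 with wild-type BCL7A the exact 95% interval of the DNTT count reaches from 0.0253 to 5.57 reads, and it overlaps that of every other group. A difference in DNTT or IGLL1 was not detectable at this depth. With VPREB1 present, the other part of the surrogate light chain, IGLL1, was therefore at the limit of detection in both lines. Intervals and limits of this kind cover counting error only.

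**Figure D2:**
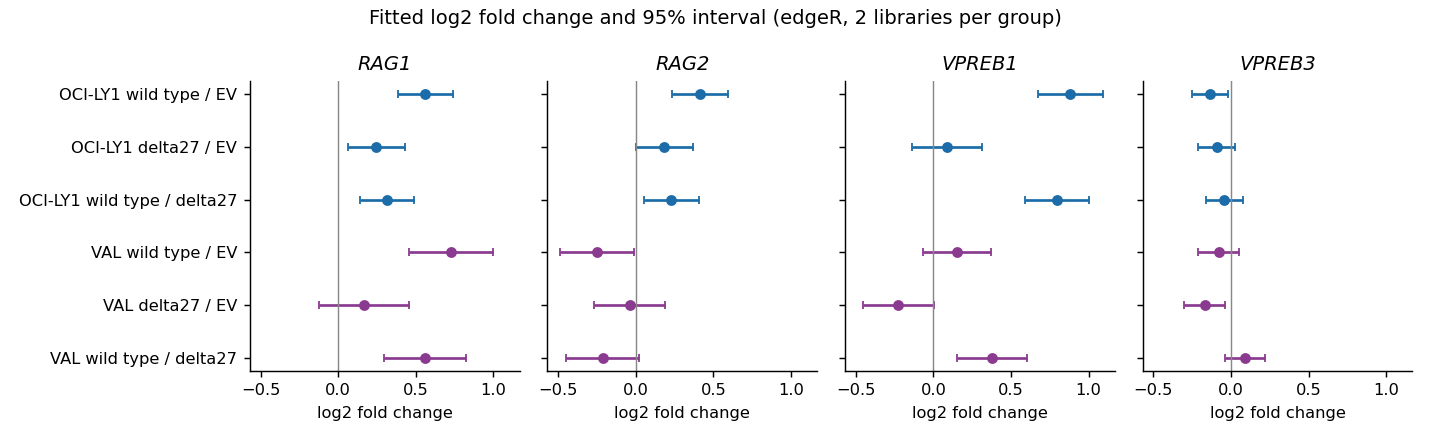
Fitted log2 fold change (x axis) with its 95% interval for the 4 members that passed the filter, in 6 comparisons (y axis; blue, OCI-LY1; purple, VAL). VPREB1 in OCI-LY1 is near 0.8 or above against both empty vector and delta27-BCL7A, and the RAG2 values have opposite signs in the lines for wild-type BCL7A against empty vector (0.41 and -0.25).

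The comparison of wild-type with delta27-BCL7A asks whether the mutant form differs from the wild type. The BCL7A transcript itself differed by a log2 value of -0.01 in OCI-LY1 and -0.07 in VAL. The comparison was not used in choosing the genes, but it shares the wild-type libraries with the comparison that was, so it is not independent of that choice. In OCI-LY1, VPREB1 was higher with wild-type BCL7A by a log2 value of 0.80 (SE 0.10; 1.74-fold; edgeR quasi-likelihood adjusted p = 5.68e-06), in 2 of 2 libraries. RAG1 was higher by 0.32 (SE 0.09; 1.24-fold; adjusted p = 0.0339, same test), also in 2 of 2 libraries. RAG2 differed by 0.23 (95% interval 0.05 to 0.41; adjusted p = 0.157) and VPREB3 by -0.04 (95% interval -0.16 to 0.08; adjusted p = 0.774), which did not pass the threshold of 0.05. With an offset for GC content and length, RAG2 was 0.30 and passed (adjusted p = 0.0375), and VPREB3 was -0.22 (adjusted p = 0.153, and 0.0511 with the replicate block). Thus, without the offset, 2 of 4 members passed, both higher, where 3.05% of all genes passed and 1.68% were higher.

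In VAL, RAG1 was higher with wild-type than with delta27-BCL7A by 0.56 (SE 0.13; 1.47-fold; edgeR quasi-likelihood adjusted p = 0.00458) and VPREB1 by 0.38 (SE 0.11; 1.301-fold; adjusted p = 0.0265). RAG2 differed by -0.21 (95% interval -0.45 to 0.02; adjusted p = 0.278) and VPREB3 by 0.09 (95% interval -0.04 to 0.22; adjusted p = 0.429; with the offset -0.11). Again 2 of 4 members passed, both higher, where 9.07% of all genes passed and 4.54% were higher. RAG1 was chosen partly on these VAL wild-type libraries, so this count is not independent of the choice of genes. Without the offset, RAG1 and VPREB1 were thus the members that passed in both lines, and RAG2 and VPREB3 passed in neither.

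The VPREB1 call in OCI-LY1 was kept when any library was left out and with every other tool and setting. That of RAG1 in OCI-LY1 was lost without either wild-type or either delta27 library (adjusted p from 0.0979 to 0.267) and with DESeq2 (adjusted p = 0.159). In VAL the RAG1 call was lost without wild-type replicate 2 (adjusted p = 0.0875) and without delta27 replicate 1 (adjusted p = 0.134). The VPREB1 call in VAL was lost without either wild-type or either delta27 library (adjusted p from 0.0735 to 0.181), with DESeq2 (adjusted p = 0.0786) and with an offset for GC content and length (log2 0.19, adjusted p = 0.314).

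Several measures moved with this comparison. The share of reads set aside for low alignment quality was 6.41% and 6.60% with wild-type against 3.92% and 3.01% with delta27-BCL7A in OCI-LY1, and 6.0% and 6.37% against 3.87% and 5.66% in VAL. Across genes, which are not independent replicates, the log2 difference correlated with GC content (Spearman's rho 0.265 in OCI-LY1 and 0.241 in VAL). Against empty vector, rho was -0.271 for wild-type and -0.415 for delta27-BCL7A in OCI-LY1, and 0.112 and -0.179 in VAL. VPREB1 exons have 59.5% GC and VPREB3 exons 58.0%, while RAG1 has 41.6% and RAG2 39.8%. With the offset for GC content and length the RAG1 differences were 0.37 in OCI-LY1 and 0.63 in VAL, and that of VPREB1 in OCI-LY1 was 0.63. Against empty vector in OCI-LY1 with the offset, RAG1 was 0.51 with wild-type and 0.14 with delta27-BCL7A, and RAG2 was 0.34 and 0.042. In that fit 9 and 8 early B cell factors passed. The share of all genes that passed in it is not reported here, so nothing is read from these counts. Of the T cell markers, TRAC, the T cell receptor alpha constant gene, was higher with wild-type than with delta27-BCL7A in OCI-LY1 (17.8 against 12.9 CPM; edgeR quasi-likelihood adjusted p = 0.00738) and in VAL (3.39 against 1.77 CPM; adjusted p = 0.00305). The 14 T cell markers summed to 195 to 197 CPM against 183 to 187 CPM in OCI-LY1 and to 185 to 194 CPM against 162 to 169 CPM in VAL, mostly LCK and, in VAL, TRBC2. CD3D, CD3G, CD2 and CD7, which define T cells, had group means of at most 0.0449 CPM, and CD3E reached 1.20 CPM in VAL. In VAL, 5 of 10 pan B cell markers, CD79B among them, were also higher with wild-type than with delta27-BCL7A. Apart from the offset, the part of these measures in the RAG1 and VPREB1 results was not tested.

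The wild-type against delta27 difference was then compared between lines (VAL minus OCI-LY1). It was 0.24 (95% interval -0.07 to 0.56) for RAG1, -0.44 (-0.74 to -0.15) for RAG2, -0.42 (-0.72 to -0.11) for VPREB1 and 0.13 (-0.04 to 0.31) for VPREB3. Of the 4 members, 0 passed after adjustment with edgeR, DESeq2 or limma-voom, where 0.451% of all genes passed with edgeR. RAG2 and VPREB1 had an unadjusted p under 0.05 (adjusted p = 0.241 and 0.324, edgeR quasi-likelihood). A line difference in the response of these genes was therefore not established.

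With empty vector alone, the lines differed widely in the recombinase. RAG1 was 3.52-fold lower in VAL than in OCI-LY1 (log2 -1.82, SE 0.12; edgeR quasi-likelihood adjusted p = 1.7e-16). RAG2 was 1.76-fold lower (log2 -0.81, SE 0.10; adjusted p = 7.23e-09) and VPREB3 1.58-fold lower (log2 -0.66, SE 0.06; adjusted p = 4.85e-12). VPREB1 differed by 0.19 (95% interval -0.04 to 0.41, edgeR quasi-likelihood adjusted p = 0.128), and by 0.34 without OCI-LY1 empty vector replicate 2. With other tools and settings the VPREB1 value lay between 0.19 and 0.36, and it passed with an offset for GC content and length. So 3 of 4 members were lower in VAL, where 36.5% of all genes were lower and 73.4% differed in either direction. FOXO1, an activator of RAG transcription in precursor cells, was also lower in VAL (log2 -1.58, SE 0.06), as were the interleukin 7 receptor IL7R (211 against 1.11 CPM), ARPP21 (154 against 0.565 CPM) and CD9 (82.8 against 3.19 CPM), genes of precursor B cells. Other genes of the same kind were higher in VAL: the factors BCL11A (log2 6.49, SE 0.10), SOX4 (2.61, SE 0.12) and IRF4 (2.26, SE 0.07), the kinase BLK (225 against 81.2 CPM) and the cytokine receptor CRLF2 (3.71 CPM against 0 reads). Of the 17 precursor B cell genes tested, 6 were higher and 10 lower in VAL, and of the 23 early B cell factors 12 were higher and 7 lower.

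The other genes of the pathway were read from 4 lists. Among 23 tested transcription factors of early B cells, 11 changed with wild-type BCL7A in OCI-LY1 and 8 with delta27-BCL7A, each of them upward, where 11.4% and 19.6% of all genes changed and 6.23% and 10.4% were higher. The median log2 difference of the list was 0.17 and 0.14, against -0.01 and -0.03 over all genes. FOXO1, at 150 CPM with empty vector, rose to 192 CPM with the wild-type and 199 CPM with the delta27 form (edgeR quasi-likelihood adjusted p = 2.87e-05 and 1.2e-06). RUNX1, a factor of blood and B cell development, rose by 0.51 (SE 0.07) and 0.42 (SE 0.07). BCL11A, needed for early B cells, rose from 1.34 to 3.04 CPM with wild-type BCL7A and was the 1 factor of the list that differed between wild-type and delta27-BCL7A in OCI-LY1 (log2 0.90, SE 0.19; adjusted p = 0.00482). FOXO1 differed from delta27-BCL7A by -0.05 there (adjusted p = 0.678). Unlike RAG1, it did not pass the test between wild-type and delta27-BCL7A in OCI-LY1; the difference between the pair was not tested.

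In VAL, 3 factors changed with wild-type BCL7A, each upward (1.62% of all genes changed, 0.885% higher): IRF4, which promotes light chain recombination, by 0.39 (SE 0.06), FOXO1 by 0.29 (SE 0.06) and the ETS factor SPIB by 0.26 (SE 0.06). With delta27-BCL7A 1 factor rose, where 5.13% of all genes changed and 2.5% were higher: FOXO3, by 0.44 (SE 0.12). Between wild-type and delta27-BCL7A, SPIB and IRF4 were higher by 0.34 (SE 0.06) and 0.27 (SE 0.06), and IKZF1 and SOX4 lower by -0.19 (SE 0.05) and -0.29 (SE 0.09). The share of all genes that passed in that comparison was 9.07%. FOXO1 was the 1 factor of the list that passed with wild-type BCL7A against empty vector in both lines.

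The end-joining list covers the proteins that process and seal RAG-made breaks and the chromatin proteins HMGB1 and HMGB2, which help RAG bind DNA. Of 13 tested, 3 rose, HMGB1 among them, and 1 fell with wild-type BCL7A in OCI-LY1, where 11.4% of all genes changed and 6.23% were higher. With delta27-BCL7A 5 rose and 1 fell, where 19.6% changed and 10.4% were higher. The DNA-dependent kinase PRKDC rose by 0.26 (SE 0.06) and 0.28 (SE 0.06), ligase LIG4 by 0.22 (SE 0.06) and 0.26 (SE 0.06), and the polymerase POLM fell by 0.21 (SE 0.06) and 0.31 (SE 0.06). In VAL, 0 of 13 passed with wild-type BCL7A by edgeR, DESeq2 or limma-voom (3 at an unadjusted p under 0.05), where 1.62% of all genes changed. PRKDC rose with delta27-BCL7A in VAL by 0.29 (SE 0.06), where 5.13% of all genes changed. Wild-type against delta27-BCL7A called XRCC4, lower by -0.32 (SE 0.08), in OCI-LY1, and in VAL LIG4, higher by 0.27 (SE 0.06), and PRKDC, lower by -0.25 (SE 0.06).

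Of 17 tested pre-B receptor and precursor B cell genes, the members left out, 2 changed with wild-type BCL7A in OCI-LY1, both upward (the kinase LYN and the surface protein CD24), and 5 rose and 1 fell with delta27-BCL7A. The shares of all genes that changed were 11.4% and 19.6%, so the first count is near the background. CD24 and CD9 were lower with wild-type than with delta27-BCL7A there, by -0.19 (SE 0.05) and -0.20 (SE 0.06), opposite in sign to VPREB1. In VAL, CD99 rose with wild-type BCL7A by 0.62 (SE 0.10), and CD79B and CD79A, which signal for the pre-B and B cell receptors, were higher than with delta27-BCL7A by 0.29 (SE 0.05) and 0.15 (SE 0.05). Of 18 somatic hypermutation and class switch genes, 0 passed between wild-type and delta27-BCL7A in OCI-LY1 by edgeR, DESeq2 or limma-voom (4 at an unadjusted p under 0.05). The share of all genes that passed there was 3.05%. In VAL, 1 of the 18 was higher and 2 were lower with wild-type than with delta27-BCL7A, where 9.07% of all genes passed. Of the lower ones, UNG, a uracil glycosylase, differed by -0.25 (SE 0.06).

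These list counts rest on few libraries. Over the 4 lists, 19 genes passed with wild-type BCL7A against empty vector in OCI-LY1, against 4 without empty vector replicate 1 and 29 without VAL wild-type replicate 1. The 11 transcription factors became 3 and 6 without empty vector replicate 1 and 2, and 4 without either wild-type library. Their 8 with delta27-BCL7A became 5 without either empty vector library and 4 without delta27 replicate 2. In OCI-LY1 with wild-type BCL7A, the 4 end-joining genes became 0 or 1 and the 2 precursor genes 0 or 1 when any of the 4 libraries compared was left out. With delta27-BCL7A the 6 precursor genes became 2 without delta27 replicate 2. Between wild-type and delta27-BCL7A in OCI-LY1, BCL11A was lost without wild-type replicate 1 or delta27 replicate 2, and XRCC4, CD24 and CD9 without either of these or wild-type replicate 2. In VAL the 3 factors became 1 without empty vector replicate 1, FOXO3 was lost without any of the 4 empty vector and delta27 libraries, and PRKDC against empty vector was lost without delta27 replicate 1. Between wild-type and delta27-BCL7A in VAL, the 4 factors became 2 without wild-type replicate 1 or delta27 replicate 1 and 7 without wild-type replicate 2. The 2 end-joining genes there became 0 without wild-type replicate 1, and the 3 hypermutation genes 1 without either delta27 library.

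**Figure D3:**
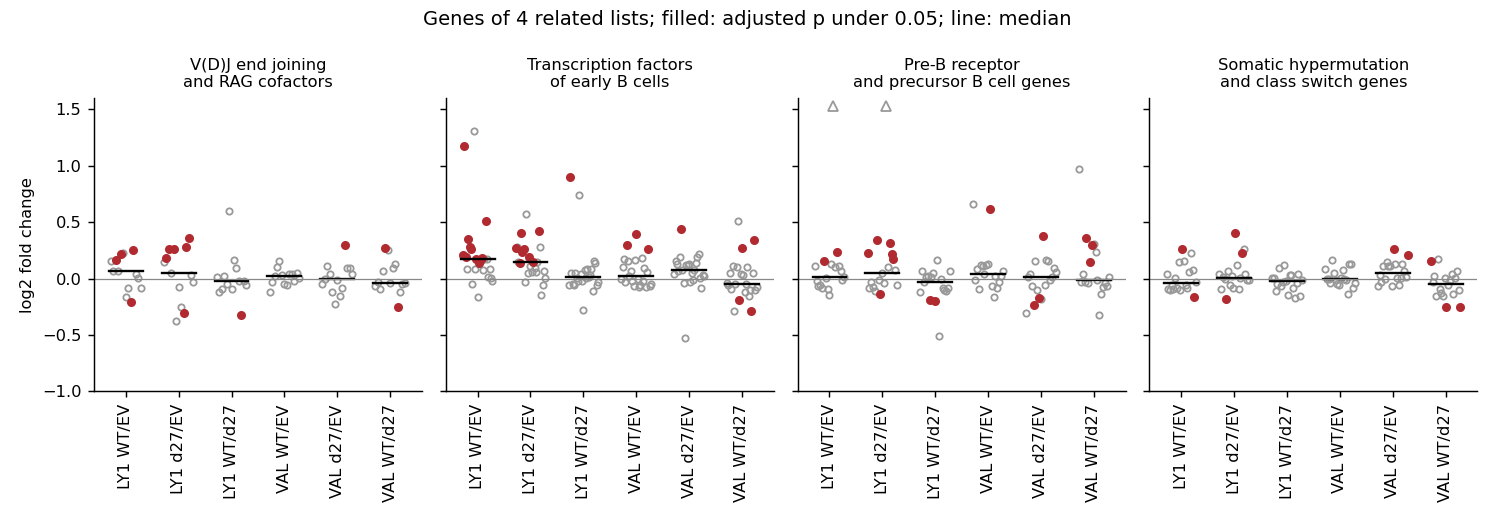
Log2 fold change (y axis) of each tested gene of the 4 lists in 6 comparisons (x axis; LY1, OCI-LY1; WT, wild-type BCL7A; d27, delta27-BCL7A; EV, empty vector); filled points passed the adjusted threshold, lines are medians, and triangles mark CRLF2, which lies above the axis. The transcription factors of early B cells have 11 filled points above 0 for wild-type BCL7A in OCI-LY1 and 3 in VAL.

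Genes beside the members were read within 250 kb of their starts. TRAF6, a signalling adaptor whose start lies 437 bases upstream of the RAG1 gene start, rose with wild-type BCL7A in OCI-LY1 (log2 0.25, SE 0.08; edgeR quasi-likelihood adjusted p = 0.0393) and differed by -0.07 (SE 0.08; adjusted p = 0.826) in VAL. COMMD9, 221260 bases upstream, differed by 0.01 (SE 0.08) in OCI-LY1. The RAG1 gene start used for these distances, 36510709, is that of a non-coding transcript. The RAG1 coding transcript starts at 36568025, much farther from TRAF6. The 19 neighbours of VPREB1 that were tested were mostly lambda variable segments and pseudogenes. With wild-type BCL7A against empty vector in OCI-LY1, 0 of them passed by edgeR, DESeq2 or limma-voom (3 at an unadjusted p under 0.05), where 11.4% of all genes passed. Against delta27-BCL7A, 1 was higher there, the pseudogene PRAMENP (log2 0.51, SE 0.08), where 1.68% of all genes were higher. In VAL 2 were higher, PRAMENP (0.38, SE 0.06) and the lambda segment IGLV6-57 (0.38, SE 0.10), where 4.54% of all genes were. Among the neighbours of VPREB3, DERL3 was lower with wild-type BCL7A in OCI-LY1 (log2 -0.39, SE 0.08) and MIF was higher than with delta27-BCL7A (0.31, SE 0.08).

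Among the genes whose pattern was most like that of RAG1 over the 12 libraries, after each line's mean was taken out, were PTPRE, a phosphatase (Pearson's r = 0.919), TP63, PDE4B and H2BC11 (r from 0.868 to 0.904). PTPRE measured 26.4, 33.5 and 28.96 CPM with empty vector, wild type and delta27-BCL7A in OCI-LY1, and 18.0, 24.7 and 18.9 CPM in VAL. For VPREB1 they were HLA-DRB1 (r = 0.957), ZBTB18, INPP5A, IRF8 and TRIM22 (r from 0.906 to 0.922). HLA-DRB1 and INPP5A had group means of at most 0.0431 CPM in OCI-LY1, so that likeness rests on few reads there. ZBTB18 measured 15.6, 18.7 and 16.4 CPM in OCI-LY1 and 51.5, 54.1 and 50.3 CPM in VAL. These are among the highest of 10992 protein-coding genes compared, given with no test; the libraries share their lines, constructs and sequencing.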

How the data were processed

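Each library has 1 deposited table of unnormalized read counts by gene, as its values show. The submitters' processing notes list, with no role or order, STAR 2.6.1b and HTSeq 0.11.2, then edgeR, DESeq2 and R 3.6.1, on GRCh38; the annotation release, strand setting and filters are not given in the sources used here. Closing lines of each table that name no gene were left out: 23.3% to 29.4% of reads lay in no gene, 2.32% to 2.55% were ambiguous and 3.01% to 6.90% had low alignment quality. Stranded libraries were made from polyadenylated RNA, per the labels' protocols. Of 60603 genes, 58483 matched GENCODE release 29 once versions were dropped, and a symbol was found for 60261.

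The test was that of edgeR 4.0.16 under R 4.3.3 (TMM, minimum count of 10, robust quasi-likelihood fit of 6 group means to 12 libraries, Benjamini-Hochberg over 17057 genes, two-sided, threshold 0.05). The fit had 6 residual degrees of freedom and a common biological coefficient of variation of 3.7%. Intervals of log2 differences used the median total of 35.2 degrees of freedom, not the 6 residual ones. Between replicates, the chi-square per degree of freedom was 7.51 in VAL with wild-type BCL7A and 1.52 to 3.21 in the other groups. Spread was estimated over all groups together, and a separate spread for VAL with wild-type BCL7A was not tested. Alternatives were RLE scaling, DESeq2 1.42.0, limma-voom 3.58.1, filters, each line alone, the replicate number as a block, a GC and length offset, and leaving out each library. The script was tested on simulated counts. The members, lists and tests were chosen with earlier results of these data known. Named genes were the members, BCL7A, up to 4 called genes of each list with the smallest p, tested neighbours and the 5 most alike genes; LMO2, SERPINA9, TRAC, TRBC2, LCK, other markers and values of FOXO1 that missed the threshold were chosen after their values were seen. Some genes of the lists and of the pattern comparison are counted but not reported by name here.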

Additional observations from a re-analysis of the deposited data

Results flagged for a closer look

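RAG2 differed from empty vector in opposite directions with wild-type BCL7A: the log2 difference was 0.41 in OCI-LY1, where both wild-type libraries lay above both empty vector libraries, and -0.25 in VAL, where both lay below. The choice of genes used that contrast, so the difference between lines was not tested.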

How the results depend on the processing

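Groups of 2 libraries limit these results. The 9 alternatives besides leaving out a library kept the call and direction of VPREB1 in OCI-LY1 against delta27-BCL7A. With DESeq2, RAG1 in OCI-LY1 (log2 0.31, adjusted p = 0.159) and VPREB1 in VAL (0.38, adjusted p = 0.0786) lost their calls against delta27-BCL7A, and the genes called were 328 in OCI-LY1 against delta27-BCL7A and 180 in VAL wild type against empty vector. With the GC and length offset, alone and with the block, RAG2 in OCI-LY1 passed against delta27-BCL7A (0.30, edgeR quasi-likelihood adjusted p = 0.0375, and 0.30, adjusted p = 0.0272). In the same settings VPREB1 in VAL lost its call (0.19 and 0.19), and VPREB1 in VAL against OCI-LY1 with empty vector passed (0.27 and 0.36). VPREB3 there reversed in OCI-LY1 delta27 against empty vector (0.16 and 0.16) and in VAL wild type against delta27 (-0.11 and -0.11). VPREB1 moved to 0.34 and 0.34 (OCI-LY1 delta27 against empty vector), 0.094 and 0.093 (VAL wild type) and -0.10 and -0.10 (VAL delta27), and VPREB3 to -0.040 and -0.041 (VAL delta27). The genes called were then 447 and 484 in VAL wild type against empty vector, 149 and 200 for the line difference and, with the block, 1378 in VAL delta27 against empty vector, with 11 of the lists. Each line alone gave 1086 called in OCI-LY1 and 907 in VAL (wild type against delta27), 146 (VAL wild type, 2 of the lists) and 321 (VAL delta27, 3 of the lists). The line difference called 51 with limma-voom and 144 with no filter. The cause was not tested.

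Leaving out single libraries gave log2 ranges against delta27-BCL7A of 0.23 to 0.40 for RAG1 and -0.10 to 0.01 for VPREB3 in OCI-LY1 (the sign turned without wild-type replicate 1, 0.0077), and of 0.38 to 0.73 for RAG1 and 0.34 to 0.44 for VPREB1 in VAL. VPREB1 in VAL against OCI-LY1 with empty vector ranged from 0.046 to 0.34. Genes called ranged from 744 to 2836 (OCI-LY1 wild type), 1265 to 4023 (OCI-LY1 delta27), 75 to 943 (OCI-LY1 wild type against delta27), 112 to 497 (VAL wild type), 145 to 1524 (VAL delta27), 438 to 2417 (VAL wild type against delta27) and 23 to 631 (line difference). Genes of the lists called ranged, in the same order, from 4 to 29, 12 to 29, 0 to 6, 2 to 8, 0 to 15 and 6 to 19.

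The replicate numbers did not pair the libraries (correlation of their deviations -0.0462 to 0.0555). The replicate block kept every member's call against delta27-BCL7A, with RAG1 at 0.32 in OCI-LY1 and 0.55 in VAL, and moved the precursor list in OCI-LY1 from 2 to 1.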
